A study of Caenorhabditis elegans with 10 samples.

Results

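The histone genes of Caenorhabditis elegans whose symbol is his- followed only by digits were followed copy by copy in germline tumours with and without signalling by the GLP-1 Notch receptor. They were chosen by symbol alone from the deposited gene table, with 1 entry per gene identifier, and copies without reads were kept. The rule found 72 of 46536 genes: 17 for H2A, 16 for H2B, 15 for H3, 16 for H4, 5 for H3.3-like proteins, 1 for the linker histone H1 (his-24), and 2 for which the deposited description named no histone type (his-39 and his-73). Each group held 5 libraries, which the series' design text calls biological replicates. In the ON group, worms carried the gain-of-function allele glp-1(ar202). In the OFF group, they carried the null allele glp-1(q175). Every worm of both groups was also mutant for gld-2(q497) gld-1(q485), a combination in which germ cells keep dividing in tumours in place of completing meiosis, so the control tissue was itself a tumour and not a normal gonad. Worms of strain background Bristol were bleached to synchronise L1 larvae and grown at 25 °C for 48 h. Their germlines were then dissected as adults 1 day old.

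Core histones H2A, H2B, H3 and H4 form the protein spool around which DNA is wrapped, and H1 binds the linker between spools. Dividing cells need new core histones in each S phase, and animals meet this need with many nearly identical replication-dependent gene copies, often arranged in clusters in which neighbours are transcribed away from each other. Messenger RNAs of such copies commonly end in a stem-loop and not in a poly(A) tail. Genes for the variant H3.3 are used outside S phase as well, and usually stand alone. The germline is the main dividing tissue of the adult worm.

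Libraries held 17.5 to 38.5 M reads in genes in ON and 18.7 to 29.3 M in OFF, in units of the total, written M, to which the CPM values (reads per gene scaled to that fixed total) were set. Ribosomal RNA still took 40.1% to 49.6% of reads in ON and 38.9% to 50.7% in OFF. The receptor gene glp-1 itself was at 248 ± 28.2 CPM in ON, against 88.2 ± 13.5 CPM in OFF (SD, n = 5 each). The groups carry different alleles of it, so its level is a limited check of the labels. Germline markers (12 of 12 tested, 1 lower) summed to 2745 to 3930 CPM in ON, against 2721 to 4013 CPM in OFF. Intestine, muscle, pharynx, epidermis and neuron markers had overlapping sums. The 7 sperm markers summed to 1.13 to 2.34 CPM in ON, against 0.375 to 0.739 CPM in OFF. Nearly all of this was spe-9, at 1.63 ± 0.435 CPM in ON, against 0.47 ± 0.149 CPM in OFF, while msp-19 was at 0. The spe-9 values are given as a description. No OFF library reached 1 CPM for it, so it entered the test only through ON libraries. The 3 gonad sheath and distal tip markers summed to 1.13 to 1.89 CPM in ON, against 1.74 to 2.77 CPM in OFF, and lim-7 was lower in ON (limma, Benjamini-Hochberg adjusted p = 0.033). The part of these cells in the histone levels was not tested. In bulk tissue, fewer cells of a type and less RNA per cell cannot be told apart. Sample numbers in the labels fell into 3 sets, with 1 ON and 2 OFF libraries in the first and in the second, and 3 ON and 1 OFF in the third. Differences within sets are given beside those of the tested genes.

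A few copies held most of the counted histone reads in both states. How reads that match several copies were counted is not given, so these shares describe counted reads only. Reads in the 72 genes made up 0.635% to 1.01% of the CPM total in ON and 0.594% to 0.694% in OFF. Their CPM summed to 7887 ± 1491 in ON and 6315 ± 399.9 in OFF (SD, n = 5 each), a ratio of 1.25 with overlapping groups. The 8 genes with a group mean of at least 100 CPM, his-59, his-60, his-61, his-62, his-63, his-64, his-67 and his-16, held 95.36% of the summed histone CPM in ON, against 93.18% in OFF. ON replicate 4 was the highest ON library for 8 of these 8 and ON replicate 2 the lowest for 8 of 8. ON replicate 4 also had the fewest reads (17.5 M) and the lowest rRNA share (40.1%) of the ON libraries, and ON replicate 2 had the highest rRNA share (49.6%). The part of depth and rRNA in this order was not tested. In OFF, replicate 4 was highest for 7 of the 8.

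**Figure D1:**
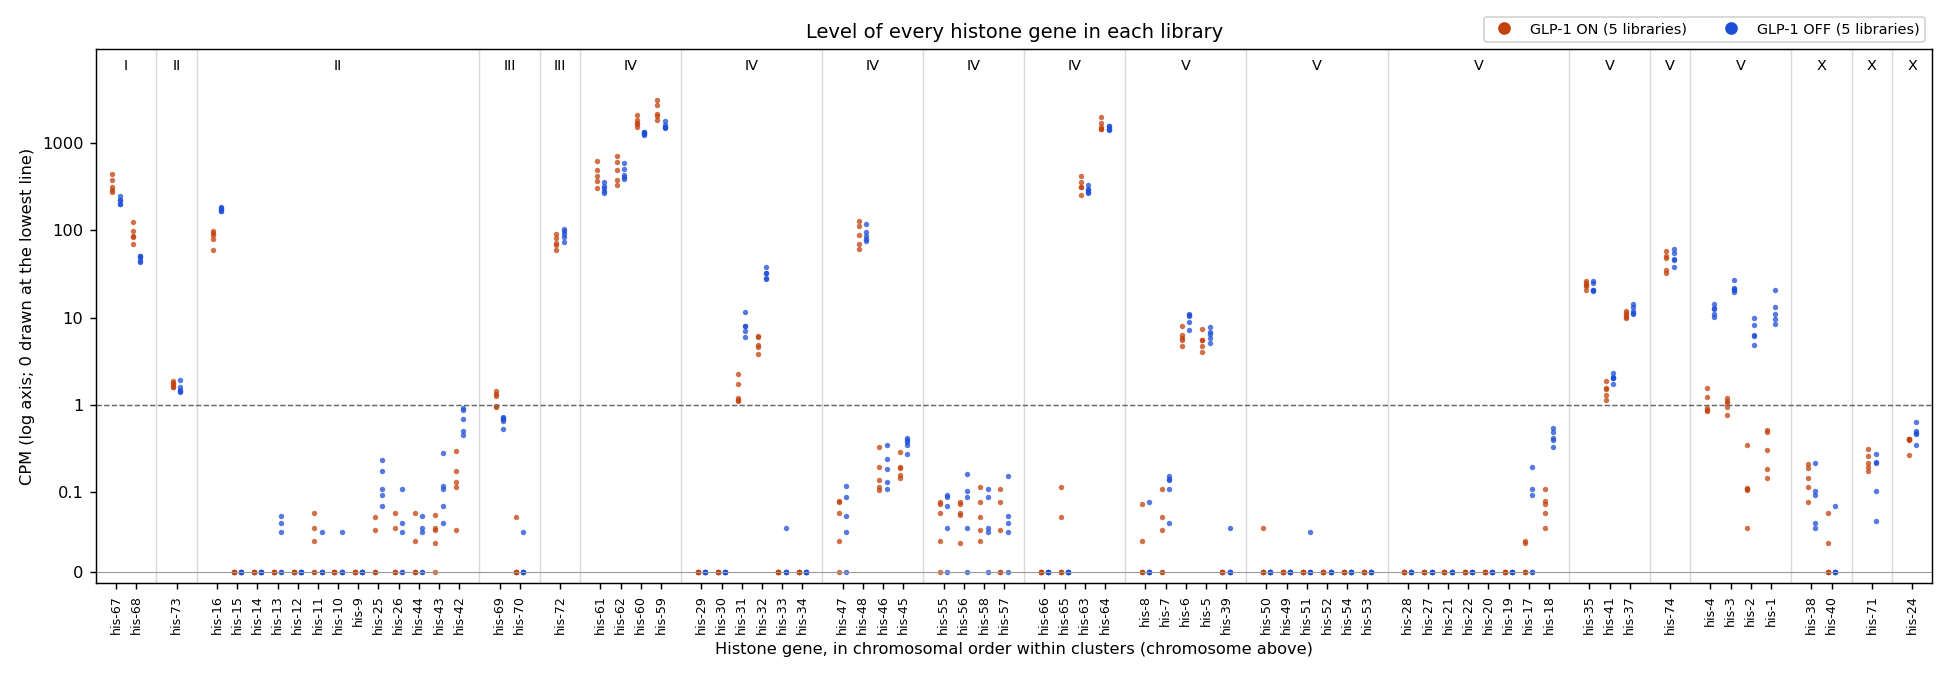
CPM of each of the 72 histone genes in every library, on a log axis with 0 drawn at the lowest line. Genes stand in chromosomal order, grey lines separate clusters, ON points are left of OFF points, and the dashed line marks 1 CPM. The highest copies sit on chromosome IV, many copies sit at or near 0 in all libraries, and his-1 to his-4, at the right end of chromosome V's clusters, are far lower in ON.

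By position in the Ensembl annotation of the WBcel235 assembly, neighbours less than 10000 bases apart were grouped into 14 clusters, with 5 genes alone. The 4 genes his-61, his-62, his-60 and his-59 (chromosome IV, 7485834 to 7488659) cover each core type once in 2826 bases. They summed to 5130 ± 1035 CPM in ON, against 3695 ± 276.2 CPM in OFF, or 65.0% of histone CPM in ON, against 58.5% in OFF. A second chromosome IV cluster (11400415 to 11407427) held his-63 (H3) and his-64 (H4) beside his-65 and his-66, with 24.9% of histone CPM in ON and 28.4% in OFF. In it, his-66 was at 0 in every library and his-65 had 4 reads in ON and 0 in OFF. On chromosome I, his-67 (H4) and his-68 (H2A) stood as a pair (9988452 to 9989515) with 5.5% in ON and 4.23% in OFF. A cluster of 13 genes on chromosome II (13817760 to 13828697) had a single gene over 1 CPM, his-16 (H2A) at its edge. The cluster of his-55 to his-58 on chromosome IV summed to 0.209 ± 0.0820 CPM in ON, against 0.245 ± 0.0909 CPM in OFF.

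Most copies had no or few counted reads. In all 10 libraries 18 genes were at 0, which allows up to 0.0779 to 0.171 CPM per library (3 reads, counting error only). A further 30 had reads but stayed under the low-value filter of 1 CPM in at least 5 libraries, and 24 passed it. Clusters of chromosome V at 8847393 to 8854053 (6 genes) and 8889488 to 8898539 (8 genes) summed to 0.00762 and 0.0814 CPM in ON, and to 0.00682 and 0.506 CPM in OFF. The first 6 genes of each have the same order of gaps, 238, 1434, 292, 2170 and 292 bases. Gaps of 227, 886 and 272 bases each occur 3 times in the chromosome II cluster.

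Whether a copy had reads went with how the annotation names it. For 36 genes the symbol in that annotation is shared with another of the 72, and for 36 it is their own. None of the 36 with a shared symbol passed the filter, 18 of them were at 0 in every library, and their highest group mean was 0.359 CPM, for his-45 in OFF. Of the 36 with their own symbol, 24 passed and 0 were at 0 throughout. The deposited descriptions gave a single protein identifier for 16 of 16 H4 copies, 15 of 15 H3 copies and 16 of 17 H2A copies, and 5 identifiers for the 16 H2B copies. How reads that match several genes were counted is not given in the sources used here. For copies at or near 0, little transcription and reads set aside because they match several copies therefore cannot be told apart.

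Of the untested genes with reads, 4 of 30 had groups that did not overlap, against 2.73% of 14844 genes with reads under the filter. His-69 (H3.3-like) had 171 reads in ON and 78 in OFF, with 0.945 to 1.42 CPM in ON, against 0.521 to 0.728 CPM in OFF. Every ON library was above every OFF library, and the gene missed the filter because only 3 libraries, all ON, reached 1 CPM. In the other 3 the OFF libraries were the higher ones. His-42 (H3) had 23 reads in ON and 78 in OFF, his-18 (H4) 11 in ON and 51 in OFF, and his-25 (H3) 3 in ON and 16 in OFF. Just inside the filter, his-73 was at 1.60, 1.60, 1.75, 1.89 and 1.74 CPM in ON replicates 1 to 5, and at 1.60, 1.91, 1.42, 1.47 and 1.38 CPM in OFF replicates 1 to 5. His-41 (H2B), next inside it, was at 1.13, 1.30, 1.57, 1.89 and 1.53 CPM in ON, and at 2.08, 1.998, 2.34, 2.05 and 1.71 CPM in OFF. The groups overlapped for both. Within sets his-73 differed by -0.08, 0.09 and 0.23. It overlaps W09H1.4, which was at 1.24 ± 0.243 CPM in ON, against 0.977 ± 0.28 CPM in OFF. Use of strand in counting is not given, so the reads of these genes cannot be told apart.

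Per kilobase of exon, H4 had the highest summed CPM of the histone types in both states. The 16 H4 genes summed to 12070 ± 1711 CPM per kilobase in ON and 9827 ± 422.6 in OFF (SD, n = 5 each). H3 followed with 6693 ± 1457 in ON and 4757 ± 362 in OFF, then H2A with 1663 ± 402.5 in ON and 1487 ± 110.8 in OFF, and H2B with 1614 ± 508.3 in ON and 1536 ± 266 in OFF. H2A and H2B did not differ beyond their spread. Of the 72 gene models 64 hold coding bases only, so for these exon length is coding length, and untranslated ends lie outside these models. Summed CPM was 1.41 times higher in ON for H3, 1.23 for H4, 1.12 for H2A and 1.05 for H2B. For H4 the ON libraries (3263 to 4598 CPM) all lay above the OFF libraries (2940 to 3221 CPM), while for the other core types the groups overlapped. Single genes ranked his-59 (5852 ± 1300 CPM per kilobase), his-60 (5696 ± 724.3) and his-64 (5233 ± 763.1) first in ON, within 1 SD of each other. In OFF the order was his-64 (4813 ± 218.9), his-60 (4192 ± 153.1) and his-59 (3923 ± 309.3). There the gap between his-60 and his-59 was smaller than the SD of his-59 but larger than that of his-60.

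Histone genes were called in both directions. Of the 24 tested, 5 were higher in ON and 8 were lower, or 54.2% called, against 19.1% of all 6833 tested genes (limma on log2(CPM + 1), called at a Benjamini-Hochberg adjusted p under 0.05). Calls higher in ON took 20.8% of the histone genes and 6.7% of all genes, and calls lower in ON 33.3% and 12.4%. The median log2 difference, ON minus OFF, was -0.17 over the 24 genes and -0.05 over all genes. The 4 genes his-1 to his-4 reached 1 CPM in fewer than 5 ON libraries, and his-1 and his-2 passed the filter only through OFF libraries, so his-1 and his-2 had to differ to be tested. Among the 22 histone genes that reached 1 CPM in a library of each group, 5 were higher and 6 lower (50% called, 22.7% higher and 27.3% lower), beside 18.1% of the 6750 such genes called (6.09% higher and 12% lower), a split added after the calls were seen. Their median log2 difference was -0.08, beside -0.05 over such genes. His-3 and his-4, at 1 CPM in 3 and 2 ON libraries, stayed among these 22. After TMM scaling, 5 were higher and 10 lower, with his-41 and his-72 added to the lower ones, beside 34.8% of all genes called (16.5% higher and 18.2% lower). The edgeR quasi-likelihood test on recovered reads gave the same 5 and 10 histone counts, beside 34.9% of all genes (16.8% higher and 18.1% lower). Groups did not overlap for 11 of 24 histone genes (45.8%), his-1 and his-2 among them, against 14.9% of tested genes. For each of them other than his-1 and his-2 the exact two-sided permutation p was 0.00794, the smallest that 5 against 5 libraries can give, and 0.0532 after Benjamini-Hochberg adjustment over the tested genes.

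**Figure D2:**
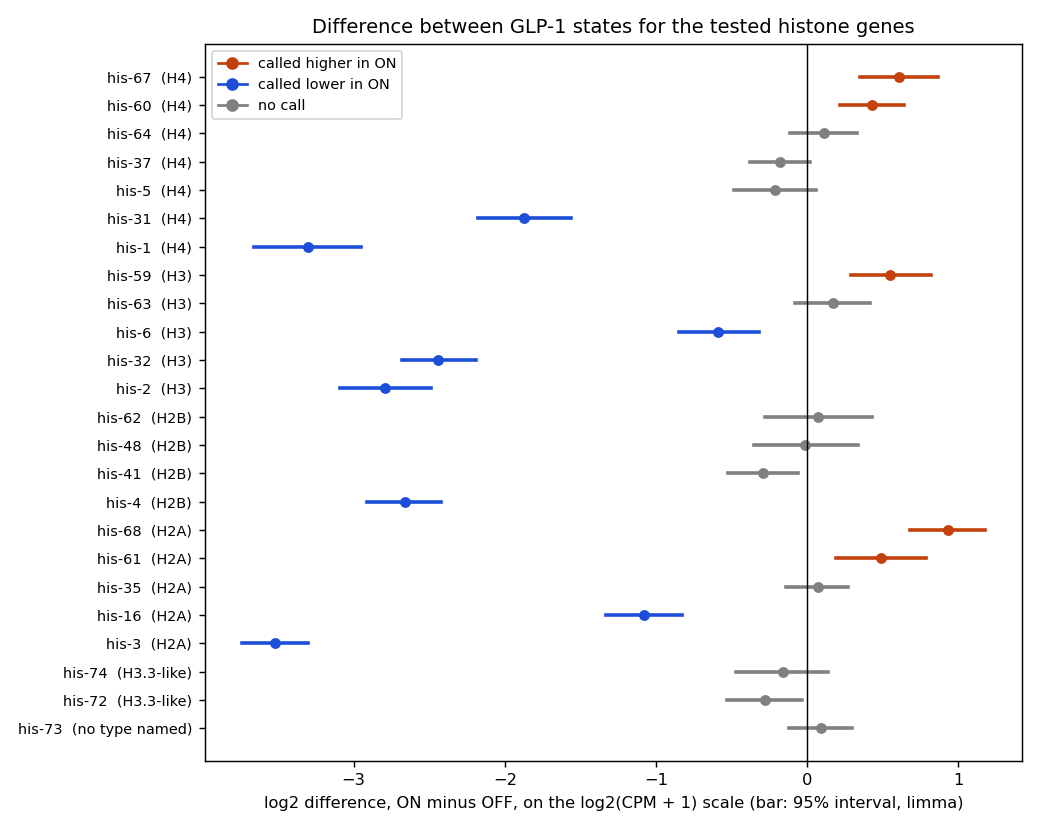
Log2 difference of the 24 tested histone genes, computed as log2(CPM + 1) in ON minus that in OFF, with 95% intervals from limma, grouped by histone type. Negative values mean lower in ON. The 8 lower calls run from -3.52 (his-3) to -0.59 (his-6), the 5 higher calls from 0.43 (his-60) to 0.93 (his-68), and each of H2A, H3 and H4 has calls on both sides of 0.

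Losses were deepest in a cluster of 4 genes on chromosome V (16040144 to 16042831), his-4 (H2B), his-3 (H2A), his-2 (H3) and his-1 (H4). It summed to 2.56 ± 0.490 CPM in ON, against 53.93 ± 11.04 CPM in OFF (SD, n = 5 each), which is 0.0324% of histone CPM in ON, against 0.854% in OFF. His-3 was at 1.09, 0.762, 0.945, 1.20 and 1.04 CPM in ON replicates 1 to 5, and at 26.8, 21.5, 21.8, 20.9 and 19.4 CPM in OFF replicates 1 to 5. No ON library came near an OFF library. Its log2 difference of -3.52 (95% interval -3.74 to -3.30, limma adjusted p = 2.3e-15) was the largest fall of all tested genes on this scale. The order depended on the added 1 CPM: with 0.25 CPM added it was -4.15, beside -4.46 for his-1 and -4.23 for his-2. Its head-to-head partner his-4 was at 0.873, 0.839, 1.57, 0.914 and 1.22 CPM in ON, and at 14.3, 10.9, 12.99, 12.7 and 10.1 CPM in OFF, a log2 difference of -2.66 (limma adjusted p = 2.1e-12). These groups too lay far apart. His-3 reached 1 CPM in 3 ON libraries and his-4 in 2, against 5 OFF libraries for each. The OFF libraries alone were enough to pass both genes through the filter, so their p-values carry that limit.

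His-1, the H4 gene of that cluster, was at 0.145, 0.305, 0.486, 0.514 and 0.182 CPM in ON, and at 20.9, 11.1, 13.1, 9.55 and 8.44 CPM in OFF. Its partner his-2 was at 0.109, 0.0381, 0.108, 0.343 and 0.104 CPM in ON, and at 9.77, 6.08, 8.31, 6.28 and 4.80 CPM in OFF. Both were low in every ON library, resting on 46 reads over the ON group for his-1 and 18 for his-2, against 1453 and 828 reads in OFF. The log2 differences were -3.30 for his-1 and -2.79 for his-2, given as a description, since no ON library reached 1 CPM and the genes entered the test only through OFF. They understate the change, since 1 CPM was added before taking logs: the ON over OFF ratio of mean CPM was 0.0258 for his-1 and 0.0199 for his-2. Within the 3 sets of sample numbers the log2 difference was -3.83, -3.22 and -2.77 for his-1, -2.98, -2.99 and -2.30 for his-2, -3.58, -3.66 and -3.31 for his-3, and -2.85, -2.91 and -2.32 for his-4.

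The middle pair of a 6-gene cluster on chromosome IV (8331044 to 8336340), his-31 (H4) and his-32 (H3), fell as well. His-32 was at 4.87, 3.81, 6.05, 6.11 and 4.57 CPM in ON, and at 37.7, 32.3, 32.6, 27.5 and 28.6 CPM in OFF, a log2 difference of -2.44 (limma adjusted p = 7.7e-12). His-31 was at 1.71, 1.14, 1.11, 2.23 and 1.19 CPM in ON, and at 11.5, 8.08, 7.93, 5.97 and 7.01 CPM in OFF, a log2 difference of -1.87 (limma adjusted p = 1e-08). Groups did not overlap for either gene. Of the 4 outer genes of that cluster, all with shared symbols, 3 were listed at 0 in all libraries and his-33 had 1 read in OFF. Within OFF, replicate 1 was the highest library for 6 of the 6 genes his-1 to his-4, his-31 and his-32, and it also had the highest rRNA share (50.7%). The part of rRNA in that order was not tested. Within sets, his-32 differed by -2.61, -2.69 and -2.18, and his-31 by -1.97, -1.88 and -1.70.

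His-16, an H2A gene (chromosome II, 13817760 to 13818143, minus strand), was the only abundant copy that fell. It was at 78.8, 59.4, 89.3, 98.7 and 92.9 CPM in ON, and at 166.8, 182.3, 177.3, 186.8 and 165.3 CPM in OFF. Every ON library was below 100 CPM and every OFF library above it. The log2 difference was -1.08 (95% interval -1.33 to -0.83, limma adjusted p = 1.1e-06), and -1.14, -1.60 and -0.81 within sets. An overlapping gene, ZK131.14, was at 0 in all libraries. His-6, an H3 gene on chromosome V, showed the smallest fall, -0.59 (limma adjusted p = 0.0022). Its levels were 6.33, 5.49, 5.80, 8.05 and 4.78 CPM in ON, and 10.8, 8.95, 10.8, 10.5 and 7.15 CPM in OFF. Here ON replicate 4 exceeded OFF replicate 5, so the groups overlapped, and the within-set differences were -0.56, -0.85 and -0.20.

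**Figure D3:**
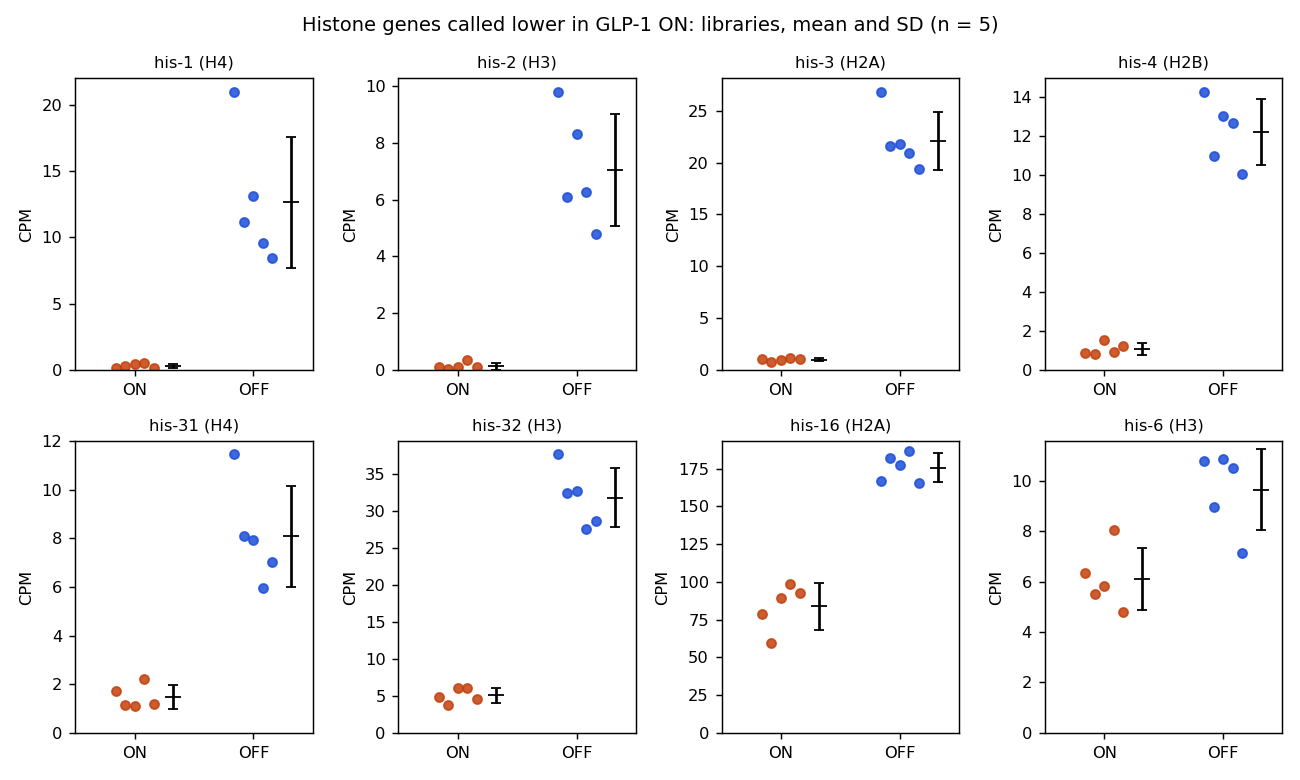
CPM of the 8 histone genes called lower in ON, with a point for each library and the mean and SD (n = 5) beside each group, ON left of OFF, each panel on its own axis from 0. His-1 to his-4 are at most 1.57 CPM in ON, his-16 separates at 100 CPM, and only his-6 has overlapping groups.

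Higher calls came from a pair of clusters. In the chromosome IV cluster of his-59 to his-62, the H3 gene his-59 was at 2076, 1869, 2757, 3158 and 2168 CPM in ON, and at 1555, 1531, 1645, 1820.3 and 1510.1 CPM in OFF. The H4 gene his-60 beside it was at 1649.8, 1530.4, 1859, 2120.4 and 1726 CPM in ON, and at 1343, 1242, 1299.8, 1364 and 1289.8 CPM in OFF. Every ON library was above every OFF library for both genes, and ON replicate 2 was the closest to them. The log2 differences were 0.55 for his-59 (95% interval 0.29 to 0.82, limma adjusted p = 0.0037) and 0.43 for his-60 (0.22 to 0.64, limma adjusted p = 0.0041). Within sets they were 0.43, 0.11 and 0.82 for his-59, and 0.35, 0.20 and 0.55 for his-60.

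The H2A gene of that cluster, his-61, was at 367, 309, 493, 619 and 424 CPM in ON, and at 304, 271, 324, 357 and 285 CPM in OFF. ON replicate 2 lay within the OFF range, so the groups overlapped. Its log2 difference of 0.49 passed the test (limma adjusted p = 0.021) but not without ON replicate 3 (adjusted p = 0.054), ON replicate 4 (0.059) or OFF replicate 2 (0.088), with the set as a term (0.12), or with no low-value filter (0.084). Within sets it was 0.36, -0.14 and 0.83.

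The chromosome I pair rose together. His-67 (H4) was at 292.8, 272.8, 379.9, 445.8 and 311.7 CPM in ON, and at 226, 199, 221.3, 249.97 and 201.9 CPM in OFF, a log2 difference of 0.61 (limma adjusted p = 0.0012). His-68 (H2A) was at 84.5, 70.7, 99.3, 124 and 86.6 CPM in ON, and at 50.3, 43.8, 48.1, 51.0 and 44.5 CPM in OFF, a log2 difference of 0.93 (95% interval 0.68 to 1.18, limma adjusted p = 1e-05). All ON libraries were above all OFF libraries for both, and his-68 had the largest increase among the histone genes. Within sets, the differences were 0.46, 0.21 and 0.89 for his-67, and 0.83, 0.50 and 1.18 for his-68.

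For the other abundant copies the test made no call. The H2B gene his-62 was at 384, 328, 608, 720.1 and 488 CPM in ON, and at 437, 412, 504, 591 and 391 CPM in OFF, with a log2 difference of 0.07 (95% interval -0.28 to 0.43, limma adjusted p = 0.81). The ON libraries spread on both sides of the OFF range. Its difference was -0.14, -0.73 and 0.61 within sets, so the sign turned between sets. His-64 (H4) was at 1466, 1442, 1721, 2011 and 1524 CPM in ON, and at 1578, 1459.7, 1434, 1572 and 1463 CPM in OFF, a log2 difference of 0.11 (-0.11 to 0.33, limma adjusted p = 0.51). His-63 (H3) was at 312, 257, 364, 425 and 311 CPM in ON, and at 289.7, 270.4, 297, 329.6 and 278 CPM in OFF, a log2 difference of 0.17 (-0.08 to 0.42, limma adjusted p = 0.35). Both had overlapping groups. Within sets the difference was -0.05, -0.06 and 0.25 for his-64, and 0.16, -0.29 and 0.39 for his-63, so both turned sign.

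Of the less abundant copies without a call, his-48, the second most abundant H2B gene, was at 92.6 ± 28.3 CPM in ON, against 90.7 ± 17 CPM in OFF (SD, n = 5 each), with a log2 difference of -0.01 (95% interval -0.35 to 0.34), and -0.23, -0.77 and 0.53 within sets. The cluster of his-35 (H2A), his-41 (H2B) and his-37 (H4) on chromosome V summed to 35.96 ± 2.32 CPM in ON, against 37.03 ± 3.28 CPM in OFF. All 3 gene models hold untranslated bases, and a pair of them overlap other genes: his-37 overlaps nstp-10 (24.1 ± 1.69 CPM in ON, against 25.2 ± 3.36 CPM in OFF) and his-41 overlaps C50F4.6 (7.02 ± 0.543 CPM in ON, against 8.74 ± 0.966 CPM in OFF). Use of strand in counting is not given in the sources used here, so reads of overlapping genes cannot be told apart. Log2 differences were 0.07 for his-35, -0.29 for his-41, -0.18 for his-37 and -0.21 for his-5, an H4 gene beside his-6. Within sets they were 0.05, -0.01 and 0.19 for his-35, -0.51, -0.47 and -0.03 for his-41, -0.18, 0.01 and -0.19 for his-37, and -0.17, -0.40 and -0.07 for his-5.

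Shares of copies within a histone type do not depend on how libraries are scaled, and they moved in all core types. In H2A, his-61 held 68.3 ± 2.13% of the type's CPM in ON, against 53.3 ± 2.21% in OFF, while his-16 held 13.2 ± 1.38% in ON and 30.6 ± 1.79% in OFF (SD, n = 5 each). His-68 held 14.5 ± 0.668% in ON and 8.26 ± 0.351% in OFF, and his-3 0.16 ± 0.0253% in ON and 3.85 ± 0.545% in OFF. Groups did not overlap for any of these 4, while they overlapped for his-35 (3.82 ± 0.802% in ON and 3.94 ± 0.449% in OFF). Shares within a type add up to the whole, so they are not independent of each other. In H4, his-60 held 47.2 ± 0.922% in ON and 42.6 ± 0.624% in OFF, and his-64 held 43.3 ± 0.66% in ON and 48.9 ± 0.658% in OFF, so the leading H4 copy was his-60 in ON and his-64 in OFF. In H3, his-59 held 87.4 ± 0.583% in ON and 82.5 ± 0.488% in OFF. In H2B the abundant copies differed least, with his-62 at 84.1 ± 0.305% in ON and 81.6 ± 0.385% in OFF, and his-48 at 15.4 ± 0.239% in ON and 15.8 ± 0.323% in OFF. For his-48 the groups overlapped. The minor H2B copy his-4 held 0.188 ± 0.046% in ON and 2.16 ± 0.319% in OFF, without overlap. Relative to their means, the ON shares of his-59, his-60, his-61, his-62, his-64, his-68 and his-48 had clearly smaller SDs than their CPM had. For his-3 in ON the relative spread was similar, with a share of 0.16 ± 0.0253% and a level of 1.01 ± 0.165 CPM. It was also similar for his-16 in OFF, with a share of 30.6 ± 1.79% and a level of 176 ± 9.47 CPM.

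**Figure D4:**
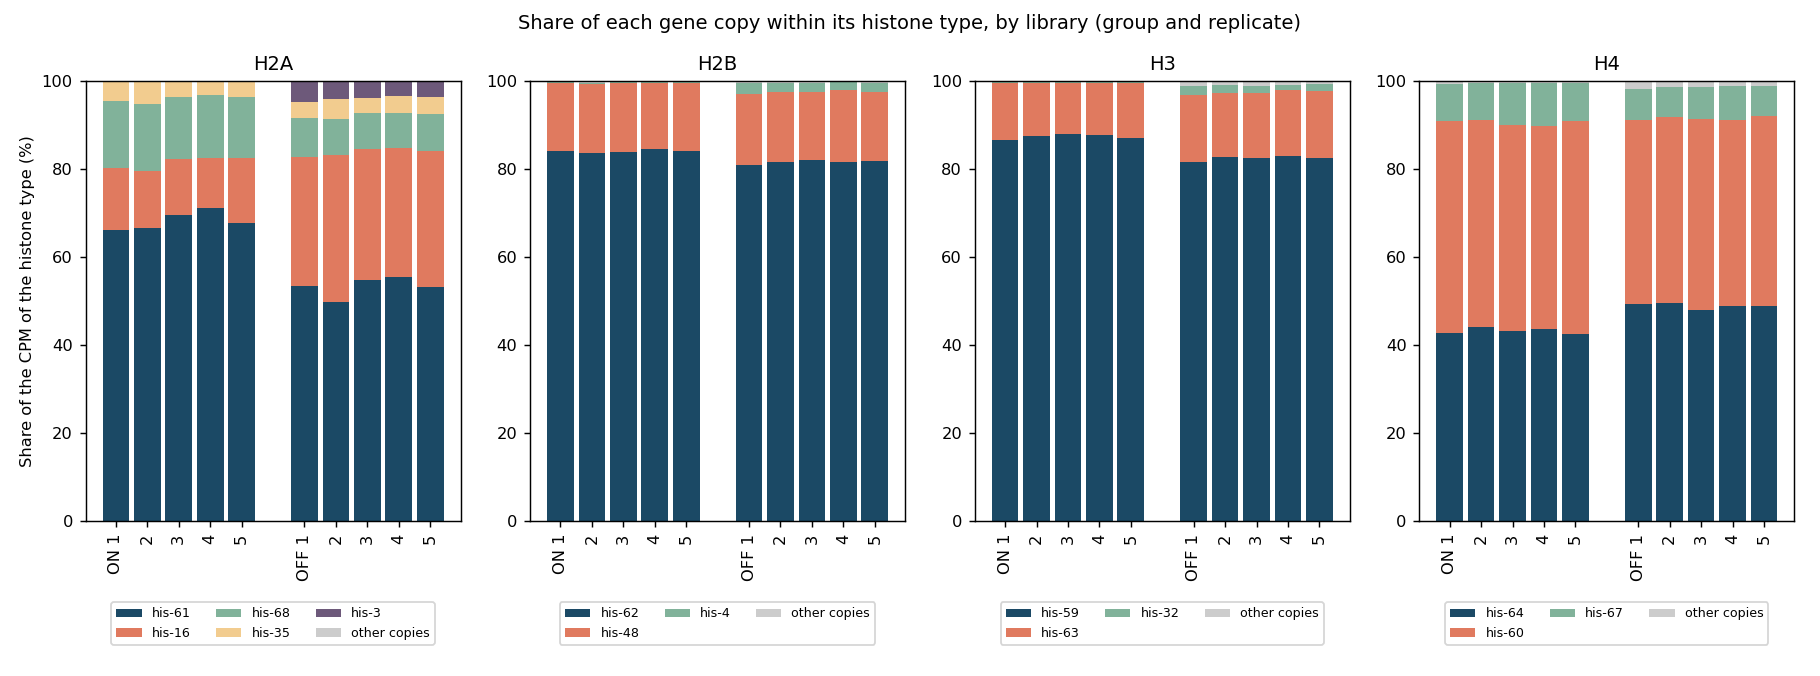
Share of each copy in the summed CPM of its histone type, in percent, stacked for each library, ON replicates 1 to 5 left of OFF replicates 1 to 5. In H2A the his-16 band is 11.3% to 14.9% in ON and 29.1% to 33.5% in OFF, and in H4 the his-60 band is the larger in ON and the his-64 band in OFF.

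Ratios between genes within a library show which copies changed unequally. Of 31 head-to-head pairs (partners under 500 bases apart), 9 had both genes tested, 2 had 1 gene tested and 20 had none. In the mixed pairs, his-16 stood beside his-15, at 0 in all libraries, and his-48 beside his-47, at 0.0476 ± 0.0336 CPM in ON, against 0.0579 ± 0.0448 CPM in OFF. Both his-15 and his-47 share their symbol with other copies. For them too, little transcription and reads set aside cannot be told apart. The ratio could be formed for 8 pairs with at least 10 reads per gene and library, and 4 pairs of the same type were added after their values were seen. P-values are from exact two-sided permutation tests, adjusted over the 8 head-to-head ratios, and the 4 added ratios are given without a test. Groups did not overlap for 5 of the 8. No share was computed for pairs of other genes, so this count has no background. Of the 5, only his-35 over his-41 held no called gene, so the separation of the others is not independent of the calls. Each of the 5 had a permutation p of 0.00794, which for single genes became 0.0532 when adjusted over the tested genes. His-62 over his-61, the H2B and H2A partners of the main cluster, was 1.13 ± 0.0771 in ON and 1.51 ± 0.109 in OFF (log2 difference -0.41, permutation adjusted p = 0.0127). It was lower in ON in each set, by -0.50, -0.59 and -0.22, although the levels of both genes turned sign between sets. His-67 over his-68 was 3.67 ± 0.167 in ON and 4.61 ± 0.164 in OFF (-0.33, permutation adjusted p = 0.0127).

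Ratios also differed for other H2A and H2B partners, with fewer reads. His-3 over his-4 was 0.985 ± 0.294 in ON and 1.82 ± 0.148 in OFF (log2 difference -0.94), and his-35 over his-41 was 16.5 ± 3.14 in ON and 11.3 ± 1.79 in OFF (0.54). The fewest reads of a gene in a library were 16 in the first pair and 31 in the second. Neither his-35 nor his-41 was called, and their ratio differed by 0.91, 0.75 and 0.24 within sets. Reads of his-41 cannot be told apart from those of C50F4.6, which overlaps it. His-6 over his-5, an H3 and H4 pair, was 1.13 ± 0.0611 in ON and 1.52 ± 0.217 in OFF (-0.42). For each of these 3 the permutation adjusted p was 0.0127, and the groups did not overlap. In the other H3 and H4 pairs the ratio did not pass: his-59 over his-60 was 1.34 ± 0.133 in ON and 1.23 ± 0.0723 in OFF (0.12, permutation adjusted p = 0.244), his-64 over his-63 4.93 ± 0.391 in ON and 5.14 ± 0.323 in OFF (-0.06, 0.437), and his-32 over his-31 3.64 ± 1.1 in ON and 4.02 ± 0.474 in OFF (-0.18, 0.408). Among the added ratios of copies of 1 type, his-61 over his-16 was 5.24 ± 0.7 in ON and 1.75 ± 0.163 in OFF, and his-59 over his-63 7.18 ± 0.371 in ON and 5.5 ± 0.11 in OFF. His-64 over his-60 was 0.918 ± 0.0301 in ON and 1.15 ± 0.0302 in OFF. His-62 over his-48 differed least, at 5.45 ± 0.104 in ON and 5.16 ± 0.119 in OFF.

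**Figure D5:**
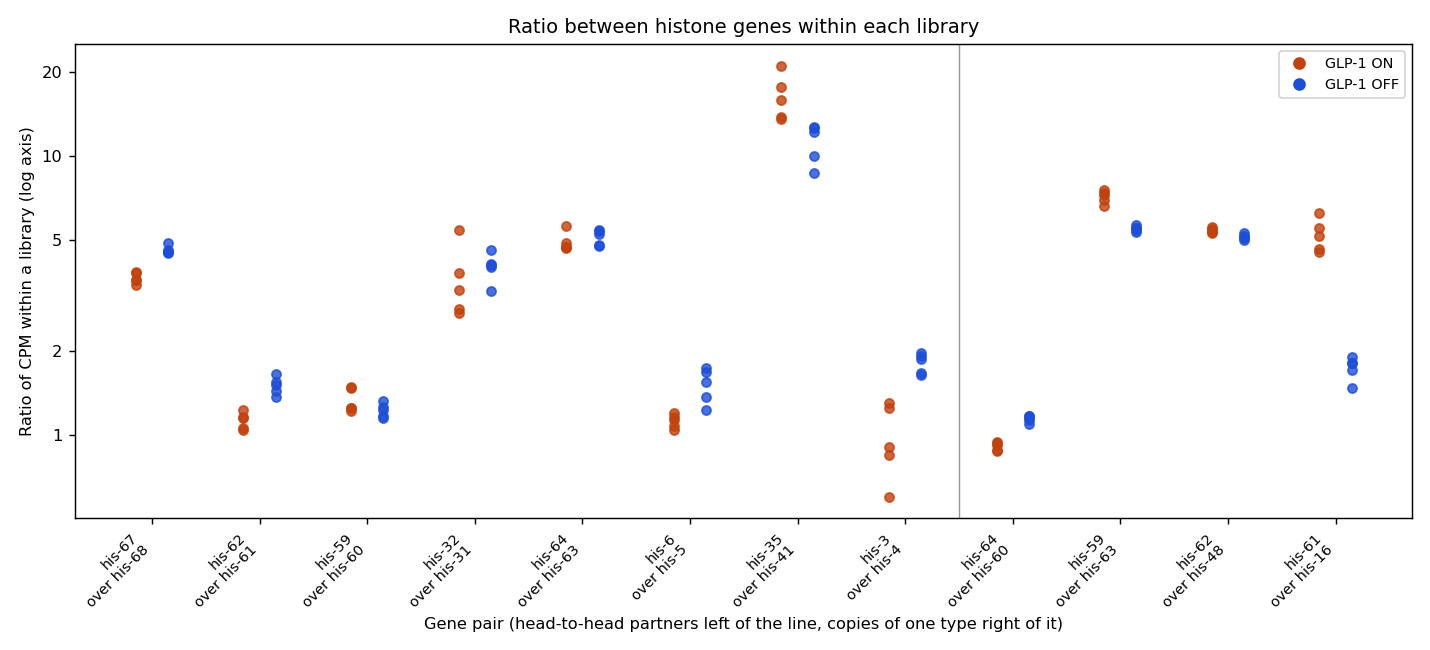
Ratio of the CPM of a pair of histone genes within each library, on a log axis, for 8 head-to-head pairs and 4 pairs of the same type, with ON points left of OFF points. The groups separate for 5 of the 8 head-to-head ratios, overlap for his-59 over his-60, his-32 over his-31 and his-64 over his-63, and separate for the 4 same-type ratios, which were chosen after their values were seen.

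At the main filter the genes for H3.3, the H3 form deposited outside S phase as well, gave no call, and only 2 of 5 were tested. His-72 was at 74.6 ± 12.4 CPM in ON, against 90.2 ± 11.8 CPM in OFF (log2 difference -0.28, 95% interval -0.53 to -0.03, limma adjusted p = 0.12). After TMM scaling its difference was -0.23 with a limma adjusted p of 0.027. Without TMM scaling it was called when ON replicate 4 (limma adjusted p = 0.045) or OFF replicate 5 was left out. A call for his-72 therefore depended on scaling and on single libraries. Within sets its difference was -0.47, -0.67 and 0.16. His-74 was at 44.7 ± 10.6 CPM in ON, against 49.5 ± 8.87 CPM in OFF (-0.16, -0.47 to 0.14), and its difference was -0.40, -0.83 and 0.44 within sets. The other three stayed under 1.5 CPM in every library. Of these, his-69 was called higher in ON at a filter of 0.5 CPM in 5 libraries and with no low-value filter. The 5 genes summed to 120.6 ± 22.8 CPM in ON, against 140.6 ± 19.15 CPM in OFF, with overlapping groups. His-24, the H1 linker gene, was at 0.372 ± 0.0592 CPM in ON, against 0.484 ± 0.107 CPM in OFF and was not tested.

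Lists outside the symbol rule covered histone-related genes and S phase genes. Of the 51 genes tested in these 4 lists together, 7 were called (13.7%), beside 19.1% of all tested genes. After TMM scaling 33.3% were called, against 34.8% of all. Of 8 tested variant and linker histone genes 3 fell and 0 rose (after TMM scaling 3 fell and 1 rose). The linker histone gene hil-2 was at 93.1 ± 15.6 CPM in ON, against 178 ± 16.1 CPM in OFF (log2 difference -0.94, limma adjusted p = 5.4e-06). On the same scale cpar-1, which encodes a centromeric H3 relative, fell by 0.35 (limma adjusted p = 0.037). Another linker histone gene, hil-6, was at 0.384 ± 0.121 CPM in ON, against 1.35 ± 0.308 CPM in OFF. Its log2 difference of -0.76 is given as a description. The gene passed the filter only through OFF libraries, so it had to differ to be counted among the 3 and the 7. Of 17 tested histone chaperone and import genes 2 fell and 0 rose, hmg-4, a subunit of the FACT chaperone, by 0.45 (limma adjusted p = 0.0036) and hat-1, a histone acetyltransferase gene, by 0.34 (0.021). After TMM scaling 3 fell and 3 rose. None of 11 tested genes for histone mRNA 3' end processing and small RNA factors was called by limma, and after TMM scaling 0 rose and 1 fell. Of 15 tested S phase genes, orc-1, a subunit of the origin recognition complex, rose by 0.33 (limma adjusted p = 0.039) and cdk-2, an S phase kinase gene, fell by 0.51 (0.0038), while 1 rose and 5 fell after TMM scaling. Median log2 differences of these 4 lists ran from -0.15 to 0.05, beside -0.05 over all tested genes.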

How the data were processed

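Ribosome-depleted RNA of 10 libraries was analysed from 1 deposited table. Reads were processed with STAR 2.0.4b, Subread's featureCounts 1.4.5, limma and edgeR, per the submitters' processing notes. Build, annotation release, strand use and handling of reads shared by several genes were not given in the sources used here. Signal values deposited by the authors are CPM, that is, reads per gene scaled to a fixed total; the unit is recorded as signal since column sums exceed the CPM total through 462 repeated rows. Without repeats, 46536 of 46998 rows remained. Values were whole multiples of 1 read within 0.01 read for 100.0% of values in every library, 1 read being worth 0.026 to 0.0571 CPM. Reads are not independent molecules, so the floors for 0 reads cover counting error only.

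Groups were compared with limma 3.58.1 (R 4.3.3), variance trend included, of log2(CPM + 1) for the 6833 genes reaching 1 CPM in 5 or more libraries, two-sided, Benjamini-Hochberg adjusted over these genes. The count test, edgeR 4.0.16 on recovered reads, called 1145 genes higher and 1237 lower. Alternatives were other pseudocounts, filters, scalings, DESeq2 1.42.0, a term for the set of sample numbers, a replicate block and leaving out each library. The procedure was tested on simulated data. Positions and exon lengths come from the Ensembl annotation of WBcel235, matched by gene identifier for 72 of 72 histone genes, and say nothing of the authors' build.

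Members and gene lists were chosen with earlier results of these data known. Per-library values are given for called genes, genes with a group mean of at least 100 CPM and those next to the filter; others are named as pathway lists or to describe a count. Groups and replicate numbers came from sample titles. P-values measure the spread between the libraries as labelled.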

Additional observations from a re-analysis of the deposited data

Results flagged for a closer look

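His-2, the H3 gene of the chromosome V cluster that fell most, had 1 ON library far from the other ON libraries. ON replicate 4 was at 0.343 CPM, while the nearest ON library was at 0.109 CPM and the other ON libraries ranged from 0.0381 to 0.109 CPM. The gap was 0.767 of the group's range, over the limit of 0.71 for 5 samples. The same library was the highest ON library for 8 of the 8 abundant histone genes. It was the only case among 60 groups examined, and chance gives about 1 in 20. At these levels his-2 rested on 18 reads over the whole ON group.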

How the results depend on the processing

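The 5 higher and 8 lower histone calls were the same genes with pseudocounts of 0.25 and 5 CPM and with a replicate block, in which the replicate number of the titles is a term (all genes: 517 higher and 1028 lower, against 458 and 847). Same-numbered libraries deviated from their group means with correlations of 0.243, -0.0242, 0.235, 0.461 and 0.173, 4 of 5 over 0.1, and 6 of 10 libraries correlated best with their own number. Not every pair passed 0.1 and the labels tie the numbers to nothing shared, so the samples were treated as unpaired. With the set of sample numbers as a term, 4 were higher (his-61 lost its call) and 8 lower (all genes: 356 higher and 635 lower). With no low-value filter 5 and 11 of 54 were called (all genes: 529 higher and 723 lower). There his-69 joined the higher calls, his-61 left them, and his-18, his-25 and his-42 joined the lower ones. At 0.5 CPM 6 and 8 were called, with his-69 added (all genes: 563 higher and 932 lower). At 5 CPM 5 and 7 were called, where his-2 is not tested (all genes: 221 higher and 623 lower). TMM, median-ratio and rRNA-free scaling and edgeR each gave 5 and 10, and DESeq2 gave 5 and 9. Leaving out 1 library gave 4 to 5 higher and 8 to 10 lower calls. Of 285 alternative values of the called genes, 280 stayed on their side of the threshold, 5 (all his-61) did not, and 0 reversed. The 12 reversals were of uncalled genes. His-62 was at -0.06 with the set term and between -0.07 and 0.21 with 1 library left out. His-48 was at 0.04 with TMM, 0.05 with median-ratio scaling, 0.00 without rRNA genes, 0.05 with edgeR and 0.07 with DESeq2, and between -0.14 and 0.13 with 1 library left out. The cause was not tested. The log2 ratio of summed histone CPM was 0.32, and 0.22 to 0.39 with 1 library left out. Over all genes, higher calls numbered 221 at 5 CPM (fewer genes tested), 1129 with TMM, 1219 with median-ratio scaling, 780 without rRNA genes, 1145 with edgeR and 1323 with DESeq2, and lower calls 1273 without rRNA genes. Leaving out 1 library gave 346 to 628 higher and 620 to 1060 lower.

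Values under 1 CPM rest on fewer than 17.5 to 38.5 reads a library, which limits what can be seen at this depth. Of the 48 untested copies, 18 had no reads, and 4 of the 30 with reads had groups that did not overlap. No such separation was seen for the others. The part of depth and of reads set aside in this was not tested.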
